A study of Mus musculus with 8 samples.

Results

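The 37 genes described here encode parts of the mouse lysosome: 11 glycosidases, 4 sulfatases, 5 cathepsins, 2 further peptidases, 6 proteins that handle lipids and sphingolipids, 5 membrane proteins, 3 parts of the proton pump, and the transcription factor Tfeb. They were taken from a list by name, and that list was chosen with earlier results of these data known. A probe set was used where the array's annotation names 1 of these genes and no other, and the brightest such probe set by its mean over all arrays stood for the gene. In this way 36 of the 37 genes were measured, among 18193 genes in all. Cd63, a tetraspanin of the lysosomal membrane, had no probe set named for it alone and was not analysed here.

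Mouse embryonic fibroblasts (MEFs) are connective tissue cells grown out of embryos. The study compared 4 samples labelled wild type (WT) with 4 labelled Cebpg-/-, which lack both copies of the gene of the transcription factor C/EBPγ, all of strain C57BL/6. The MEFs of both genotypes were isolated at E13.5, grown in DMEM with 10% FBS and antibiotics, and passaged 3 times; 48 hours after plating at 1 density they were collected, and no other agent or allele is named for either group. Each sample was hybridised to 1 Affymetrix array, and values are on the log2 scale, so a difference of 1 is a 2-fold change. The labels call the samples biological replicates without saying whether they came from separate embryos, so each p-value speaks only of the spread among the 8 samples, which may be technical.

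Lysosomes are acidic organelles that break down proteins, glycans, glycosaminoglycans and lipids delivered by endocytosis and autophagy. A proton pump, the V-ATPase, keeps the interior acidic, and different hydrolases cut different bonds, most of them being brought to the organelle by a mannose 6-phosphate tag. All nucleated cells have lysosomes, and macrophages, which digest what they engulf, are especially rich in them. Many lysosomal genes carry near their start site the palindrome TCACGTGA or its core CACGTG, to which Tfeb and the related factors Tfe3 and Mitf can bind, whereas dimers of C/EBP and ATF factors bind elements such as TTGCATCA.

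Promoter sequences are shown for the 5 members that hold TCACGTGA and for Lamp1, as a description only, and no test was run on the motifs. RefSeq windows of GRCm38.p6, from 250 bases before to 50 bases after the start site, were at hand for 33 of the 37 members and for 27025 genes in all. All 3 motifs were searched on both strands, and each TCACGTGA also counts as a CACGTG. TCACGTGA lay in the windows of 5 of the 33 members (15.2%) and of 1.12% of all genes. Gla and Ctsa held 2 copies each, and Ctsd, Mcoln1 and Atp6v0d1 held 1 each. Of the 2 Ctsa copies, 1 lies after the start site, outside the stretch printed below. The stretches are printed 5′ to 3′ along the gene, with TCACGTGA in capitals. They are, in order, chrX:134601176-134601245 on the minus strand, chr7:142387888-142387957 on the minus strand, chr8:3500439-3500508 on the plus strand, chr2:164833743-164833772 on the plus strand and chr8:105566061-105566090 on the minus strand.
Gla: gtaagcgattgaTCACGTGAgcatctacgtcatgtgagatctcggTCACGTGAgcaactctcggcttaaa
Ctsd: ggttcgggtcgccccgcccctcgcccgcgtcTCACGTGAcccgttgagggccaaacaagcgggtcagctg
Mcoln1: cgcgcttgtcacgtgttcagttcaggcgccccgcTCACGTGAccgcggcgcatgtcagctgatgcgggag
Ctsa: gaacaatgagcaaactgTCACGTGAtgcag
Atp6v0d1: taagagccaggccctactgcggTCACGTGA

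The core CACGTG lay in 12 of the 33 windows (36.4%), against 8.09% of all genes. Besides those 5 genes it was found in Arsa, Ctsl, Gaa, Glb1, Lamp1, Naglu and Sgsh. Lamp1 held 4 copies within 70 bases before its start site (chr8:13159086-13159155, plus strand), shown with the core in capitals as the window with the most copies among the members.
Lamp1: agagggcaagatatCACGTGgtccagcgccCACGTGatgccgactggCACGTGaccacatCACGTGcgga
TTGCATCA was in none of the 33 windows and in 1.03% of all genes; this says only that these letters are not in these windows. The matches describe sequence and do not show that a factor binds there.

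Beside the members, Cebpg itself and marker genes of several cell types were read on the same arrays. Of 3 probe sets for Cebpg, 1 passed as lower (limma, adjusted p = 0.000593 over all probe sets). It read 6.29, 6.23, 6.32 and 6.41 on WT replicates 1 to 4 and 5.42, 5.69, 5.44 and 5.57 on Cebpg-/- replicates 1 to 4. The brightest went from a mean of 6.78 in WT to 6.60 in Cebpg-/- (limma, adjusted p = 0.275). The dimmest went from 2.80 to 3.05 (limma, adjusted p = 0.0942). The sources used here do not say which probe sets the deletion removes. The macrophage level of an array is the mean of Lyz2 (lysozyme) and Cd53 (a leukocyte tetraspanin). It was 5.13, 7.20, 7.01 and 6.98 in WT and 9.41, 6.94, 8.69 and 8.49 in Cebpg-/-. Cebpg-/- replicate 2 thus lay just below WT replicates 2 to 4, and WT replicate 1 lay below the other 7 arrays. The genotypes differed by 1.80 with overlapping groups (two-sided exact permutation test over 70 assignments, p = 0.114; the smallest possible is 0.0286). Without Cebpg-/- replicate 2 the difference was 2.28 (exact p = 0.0286, the smallest that test can give). Lyz2 itself changed by 1.99 (limma, adjusted p = 0.0646) and Cd53 by 1.61 (adjusted p = 0.0610). The counts of markers that follow stand against 8.62% of all genes higher and 3.99% lower. Of 25 macrophage markers 1 (Cd14) passed as higher. The changes of 24 of the 25 were above 0, against 49.7% of all genes, with a median of 1.56. Their summed linear level was 427 to 1921 in WT and 1321 to 8090 in Cebpg-/-, with none below the array median on every array. Of 12 fibroblast markers 5 fell (Col1a1, Col1a2, Col3a1, Col5a1 and Pdgfrb). The changes of 2 others were above 0, up to 1.07, without passing, and none of the 12 passed at equal macrophage level. No fibroblast marker was below the array median on every array. Their summed linear level was 20766 to 22803 in WT and 15282 to 18082 in Cebpg-/-. Of 8 osteoclast markers, Calcr, Oscar, Ocstamp and Atp6v0d2 were below the array median on every array. Of 7 basophil and mast cell markers 1 passed, Mcpt8, a protease of basophils, which rose by 2.76 and by 2.04 at equal macrophage level; the other 6 were below the array median on every array, and the summed linear level was 39.0 to 49.3 in WT and 97.4 to 221 in Cebpg-/-. Of the 5 further lists (endothelial, epithelial, muscle, neural and erythroid) none had more than 1 gene past the threshold in either direction. The part of these markers in the results on the members was not tested, apart from the macrophage level. In bulk RNA, more cells of a type and more RNA per cell cannot be told apart.

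Lysosomal genes were compared between fibroblasts without Cebpg and WT fibroblasts. Of 36 measured members 14 (38.9%) were higher in Cebpg-/- and none was lower (limma, Benjamini-Hochberg over 18193 genes, threshold 0.05), where 8.62% of all genes were higher and 3.99% lower. The 14 were the glycosidases Gusb, Gla, Neu1 and Fuca1, the sulfatases Arsb and Ids, the peptidases Ctsb, Ctsd, Tpp1 and Ctsa, the lipid-handling genes Psap, Npc2 and Ppt1, and the channel Mcoln1. Their rises were modest, from 1.16-fold (Npc2) to 1.57-fold (Gla). At an unadjusted p under 0.05, 23 members (63.9%) were higher and 0 lower, against 17.5% and 10.9% of all genes. The change was above 0 for 32 of 36 members, against 49.7% of all genes, and its median over the members was 0.25, against -0.00 over all genes.

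All 4 Cebpg-/- values lay above all 4 WT values for 17 members (47.2%), against 12.8% of all genes. These were 13 of the 14 that passed, Ctsb being the exception, and Glb1, Manba, Sgsh and Lamp1. Cebpg-/- replicate 1, the array with the highest macrophage level, was the highest of all 8 arrays for 33 of 36 members (91.7%), against 17.4% of all genes. The 3 others were Ctsk, Lamp2 and Tfeb. Sgsh is counted among the 33, although its values on Cebpg-/- replicates 1 and 3 were equal (3.77). On Cebpg-/- replicate 2, whose macrophage level was 6.94, 17 members (47.2%) lay above all 4 WT arrays, against 28.3% of all genes. The 17 members whose groups did not overlap had to be among them by definition, and no further member was.

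The count of 14 moved with single arrays. It was 6, 9 and 8 without WT replicate 1, 2 or 3, 8, 7 and 9 without Cebpg-/- replicate 1, 3 or 4, and 19 without Cebpg-/- replicate 2. Gusb, Gla, Fuca1, Ids, Tpp1 and Ppt1 passed in all 8 fits that left out 1 array. With WT replicate 1 and Cebpg-/- replicate 1 both left out, Gla alone passed, and with all probe sets of a gene averaged in place of the brightest, 6 members did (Ctsb, Ctsd, Fuca1, Gla, Gusb and Tpp1).

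**Figure D1:**
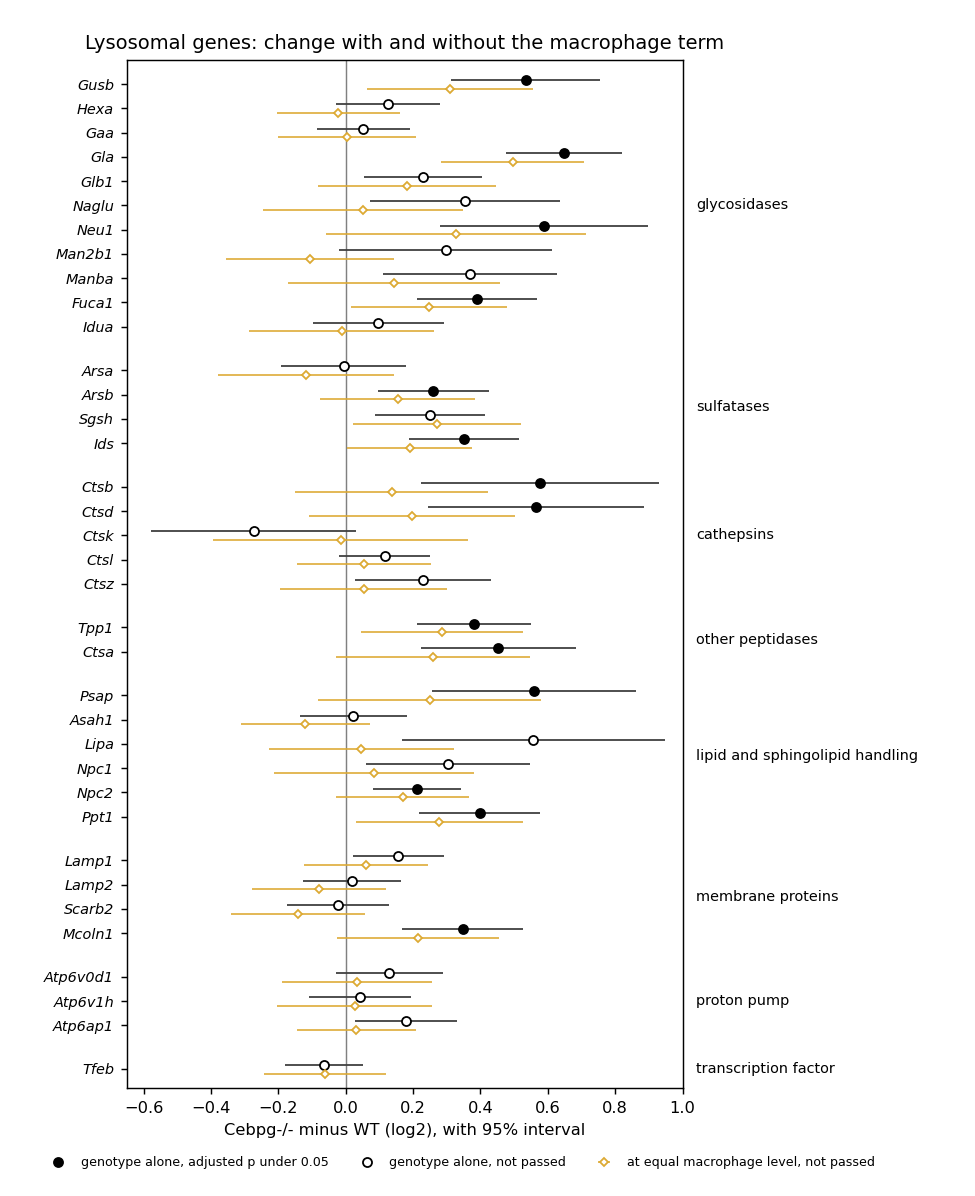
Cebpg-/- minus WT on the log2 scale for the 36 measured members, grouped by role, with 95% intervals. Circles are from the fit with genotype alone, filled where the gene passed, and diamonds from the fit with the macrophage level as a further term. The 14 filled circles lie to the right of 0 and every diamond of these genes lies nearer to 0 than its circle.

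Glycosidases remove sugars from glycoproteins, glycolipids and glycosaminoglycans one residue at a time. Of 11, 4 rose and 7 did not pass, and all 11 changes were above 0, with a median of 0.35. Gla (α-galactosidase A, which takes the terminal galactose off globotriaosylceramide) read 5.65, 5.72, 5.83 and 5.91 on WT replicates 1 to 4 and 6.52, 6.31, 6.51 and 6.37 on Cebpg-/- replicates 1 to 4. The groups were separate by 0.40, and the SD was 0.12 in WT and 0.11 in Cebpg-/-. Gla, whose promoter holds 2 copies of TCACGTGA, rose 1.57-fold (0.65, SE 0.08; limma, adjusted p = 0.00107), the largest change and lowest adjusted p among the members in this fit.

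Gusb, the β-glucuronidase that acts on glycosaminoglycans, read 7.30, 7.35, 7.43 and 7.56 in WT and 8.18, 7.72, 8.01 and 7.87 in Cebpg-/-. Its groups did not overlap, Cebpg-/- replicate 2 being the lowest of its group, and it rose 1.45-fold (0.53, SE 0.10; limma, adjusted p = 0.00869). Fuca1, an α-fucosidase, was even across WT arrays at 7.56, 7.60, 7.57 and 7.60 and read 8.19, 7.83, 8.01 and 7.86 in Cebpg-/-. It rose 1.31-fold (0.39, SE 0.08; limma, adjusted p = 0.0132) with every Cebpg-/- array above every WT array.

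Neu1, a sialidase that works in a complex with Ctsa, read 4.17, 4.26, 4.14 and 4.64 in WT and 5.24, 4.67, 4.82 and 4.84 in Cebpg-/-. WT replicate 4 came close to Cebpg-/- replicate 2 without crossing it. The rise was 1.50-fold (0.59, SE 0.14; limma, adjusted p = 0.0226), and it did not pass without replicate 1 or 3 of WT or replicate 1 of Cebpg-/- (adjusted p up to 0.0726).

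Of the other 7 glycosidases, 3 had intervals of the change that stayed above 0 before adjustment: Manba (β-mannosidase; 0.37, limma, adjusted p = 0.0637), Naglu (a heparan sulphate glucosaminidase; 0.35, adjusted p = 0.0971) and Glb1 (β-galactosidase; 0.23, adjusted p = 0.0842). Man2b1, an α-mannosidase, had a change of 0.30 (95% interval -0.02 to 0.61). For Hexa (the α subunit of β-hexosaminidase), Gaa (the acid α-glucosidase of glycogen) and Idua (α-iduronidase) the changes were 0.13, 0.05 and 0.10. Their intervals reached up to 0.28, 0.19 and 0.29, so larger rises than these lie outside them.

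**Figure D2:**
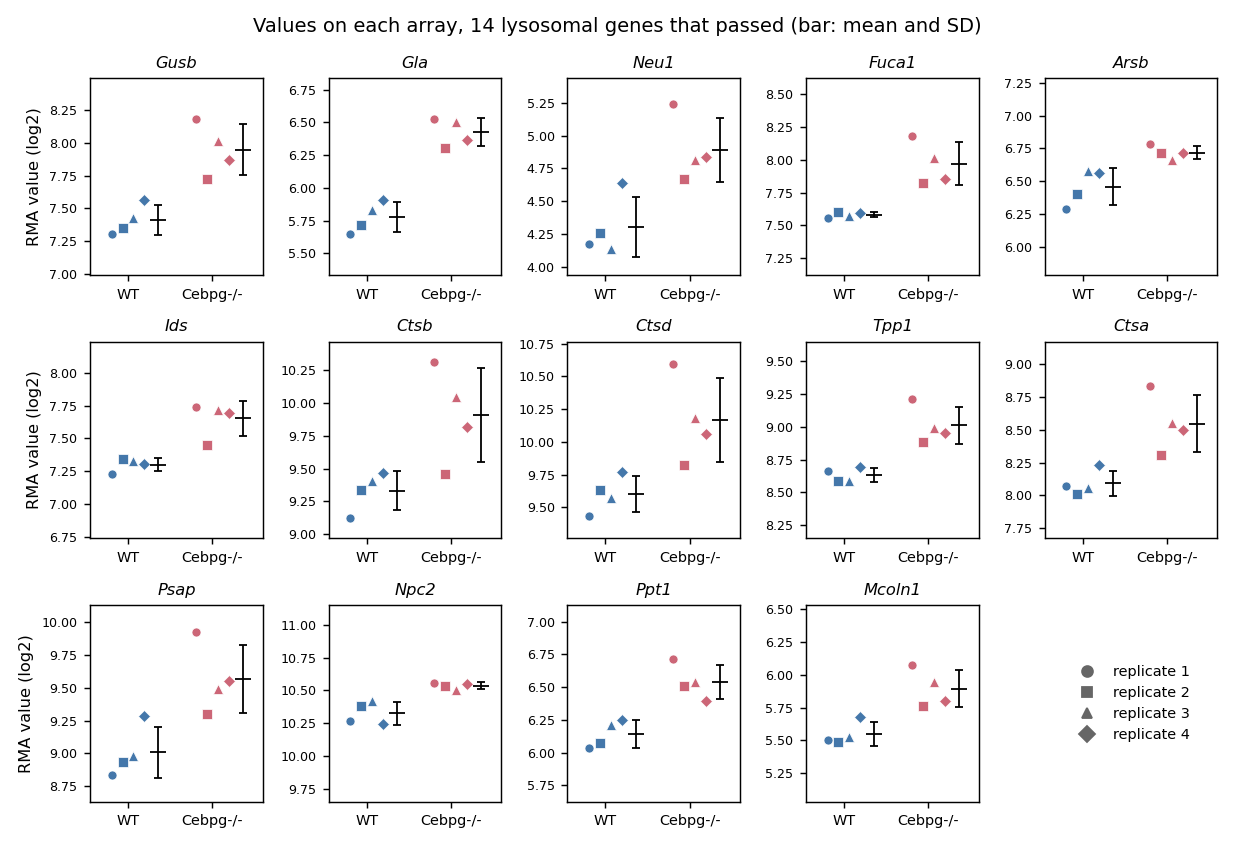
RMA values (log2) on each of the 8 arrays for the 14 members that passed, with every panel spanning 1.5 log2 units; marker shape gives the replicate number and the black bar the mean and SD of the 4 arrays. In each panel except Ctsb the lowest Cebpg-/- value lies above the highest WT value.

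Sulfatases strip sulphate groups from glycosaminoglycans and sulfatide and need the activating enzyme Sumf1. Of 4, 2 rose. Ids, the iduronate sulfatase of heparan and dermatan sulphate, read 7.23, 7.34, 7.33 and 7.30 in WT and 7.74, 7.45, 7.72 and 7.69 in Cebpg-/-. Cebpg-/- replicate 2 stood apart from its group, nearer to WT, and the groups did not overlap (1.28-fold, 0.35, SE 0.07; limma, adjusted p = 0.0140). Arsb (arylsulfatase B, for dermatan and chondroitin sulphate) read 6.29, 6.40, 6.58 and 6.56 in WT and 6.78, 6.71, 6.66 and 6.71 in Cebpg-/-. Its Cebpg-/- arrays lay close together just above WT, a rise of 1.20-fold (0.26, SE 0.07; limma, adjusted p = 0.0467) that passed in 2 of 8 fits without 1 array, those without WT replicate 3 or WT replicate 4. Sgsh, the heparan N-sulfatase, had a change of 0.25 (limma, adjusted p = 0.0523) with separate groups. Arsa, the sulfatide sulfatase, had a change of -0.01 (95% interval -0.19 to 0.18).

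Cathepsins are the main lysosomal endo- and exopeptidases. Of 5, Ctsb and Ctsd rose. Ctsd, an aspartic endopeptidase whose promoter stretch is shown above, read 9.43, 9.63, 9.57 and 9.77 in WT and 10.59, 9.83, 10.19 and 10.06 in Cebpg-/-. The groups did not overlap, but Cebpg-/- replicate 2 lay only slightly above WT replicate 4. The rise was 1.48-fold (0.57, SE 0.14; limma, adjusted p = 0.0307) and passed in 3 of the 8 fits without 1 array, those without replicate 4 of WT or replicate 1 or 2 of Cebpg-/-.

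Ctsb, a cysteine peptidase, read 9.12, 9.33, 9.41 and 9.46 in WT and 10.31, 9.46, 10.05 and 9.82 in Cebpg-/-. Its Cebpg-/- replicate 2 was level with the highest WT array while the other 3 lay above, so the groups met. Ctsb rose 1.49-fold (0.58, SE 0.16; limma, adjusted p = 0.0404), and passed only without WT replicate 4 or Cebpg-/- replicate 2 among the fits that left out 1 array.

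Ctsz, a carboxypeptidase, and Ctsl, an endopeptidase, had changes of 0.23 (limma, adjusted p = 0.128) and 0.12 (adjusted p = 0.242). Ctsk, best known as the collagen-degrading peptidase of osteoclasts, had the lowest change of all members, -0.27 (95% interval -0.58 to 0.03; adjusted p = 0.220). Its values were 6.89 to 7.23 in WT and 6.46 to 7.13 in Cebpg-/-, which overlap.

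Both of the other peptidases rose. Tpp1, which cleaves tripeptides from the amino end of proteins, read 8.66, 8.59, 8.58 and 8.69 in WT and 9.21, 8.88, 8.99 and 8.96 in Cebpg-/-. Its WT arrays spanned little and all Cebpg-/- arrays were above them, replicate 2 included (1.30-fold, 0.38, SE 0.08; limma, adjusted p = 0.0116). Ctsa, a carboxypeptidase that protects Neu1 and Glb1 in their complex, read 8.07, 8.01, 8.06 and 8.23 in WT and 8.83, 8.31, 8.55 and 8.50 in Cebpg-/-. The order of its Cebpg-/- arrays, replicate 1 highest and replicate 2 lowest, was that of the macrophage level at both ends. It rose 1.37-fold (0.45, SE 0.10; limma, adjusted p = 0.0198) and did not pass without replicate 1 or 3 of WT or replicate 3 of Cebpg-/-.

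Of 6 genes for lipids and sphingolipids, 3 rose. Psap, the precursor of the saposins that present sphingolipids to their hydrolases, read 8.83, 8.94, 8.98 and 9.29 in WT and 9.93, 9.30, 9.49 and 9.55 in Cebpg-/-. WT replicate 4 and Cebpg-/- replicate 2 nearly met, and the rise was 1.47-fold (0.56, SE 0.14; limma, adjusted p = 0.0254; passed in 2 of the 8 fits without 1 array, those without WT replicate 4 or Cebpg-/- replicate 2). Ppt1, which takes palmitate off proteins, read 6.03, 6.07, 6.21 and 6.25 in WT and 6.72, 6.51, 6.54 and 6.40 in Cebpg-/-. Its lowest Cebpg-/- array was replicate 4, not replicate 2, and it rose 1.32-fold (0.40, SE 0.08; limma, adjusted p = 0.0128).

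Npc2, which hands cholesterol to Npc1 for export from the lysosome, read 10.27, 10.38, 10.42 and 10.24 in WT and 10.56, 10.53, 10.50 and 10.55 in Cebpg-/-. The 4 Cebpg-/- arrays were nearly level, SD 0.03, whatever their macrophage level. Npc2 rose 1.16-fold (0.21, SE 0.06; limma, adjusted p = 0.0431), a call kept only without WT replicate 3 among the 8 fits without 1 array. Its partner Npc1 had a change of 0.30 (limma, adjusted p = 0.100), and Asah1 (acid ceramidase) of 0.02 (95% interval -0.13 to 0.18).

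Lipa, the acid lipase that frees cholesterol and fatty acids from lipoproteins, read 5.87, 6.22, 6.36 and 6.24 in WT and 7.21, 6.28, 6.77 and 6.66 in Cebpg-/-. Its lowest array was WT replicate 1 and its highest Cebpg-/- replicate 1, as for the macrophage level, and Cebpg-/- replicate 2 lay below WT replicate 3. The change of 0.56 (SE 0.18) was of the size of that of Psap, with a wider spread (limma, adjusted p = 0.0651).

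Among 4 measured membrane proteins Mcoln1 rose. Mcoln1 (mucolipin 1, a cation channel that releases calcium from lysosomes) read 5.50, 5.49, 5.52 and 5.68 in WT and 6.08, 5.76, 5.94 and 5.80 in Cebpg-/-. The groups were separate by a narrow gap (1.27-fold, 0.35, SE 0.08; limma, adjusted p = 0.0215; passed in 4 of the 8 fits without 1 array and not without replicate 1 or 3 of either genotype). Lamp1 and Lamp2 are the abundant glycoproteins that line the inner face of the lysosomal membrane. Lamp1 read 10.19, 10.24, 10.26 and 10.28 in WT and 10.52, 10.32, 10.35 and 10.39 in Cebpg-/-, separate groups with a change of 0.16 (95% interval 0.02 to 0.29; limma, adjusted p = 0.124).

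The values of Lamp2 were 10.04, 10.07, 10.06 and 10.20 in WT and 10.19, 10.00, 10.19 and 10.08 in Cebpg-/-. The groups overlapped over nearly their whole range, and the change was 0.02 (95% interval -0.13 to 0.16; limma, adjusted p = 0.877). Scarb2, the receptor that carries glucocerebrosidase to lysosomes, had a change of -0.02 (95% interval -0.17 to 0.13).

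None of the 3 proton pump members passed (limma), and 1, Atp6ap1, had an unadjusted p under 0.05. Atp6ap1, an accessory subunit, had a change of 0.18 (limma, adjusted p = 0.114), Atp6v0d1, of the membrane sector, 0.13 (adjusted p = 0.263) and Atp6v1h, of the cytosolic sector, 0.04 (adjusted p = 0.723). Upper ends of their 95% intervals were 0.33, 0.29 and 0.19. Atp6v0d1 carries TCACGTGA next to its start site and is the only member with this motif that did not pass; the core CACGTG lay in 4 of 13 members that passed and had a window, and in 8 of 20 that did not pass or were not measured.

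Tfeb, the factor that switches on many lysosomal genes and is mainly controlled by its phosphorylation and location, read 4.33, 4.36, 4.37 and 4.32 in WT and 4.26, 4.30, 4.34 and 4.22 in Cebpg-/-. Its groups overlapped and the change was -0.06 (95% interval -0.18 to 0.05; limma, adjusted p = 0.454). An array of RNA does not measure its protein, phosphorylation or location.

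Each member was then set against the macrophage level of its array. In a fit with genotype and macrophage level, none of 36 members was higher or lower at equal macrophage level (limma, Benjamini-Hochberg over 18191 genes, threshold 0.05), where 0.577% of all genes were higher and 0.319% lower. At an unadjusted p under 0.05, 7 members were higher (19.4%; Gusb, Gla, Fuca1, Sgsh, Ids, Tpp1 and Ppt1) and 0 lower, against 7.99% and 5.0% of all genes. The median change over the members was 0.07, against 0.25 with genotype alone, and 27 of 36 changes (75.0%) were above 0, against 52.4% of all genes. Intervals were wider in this fit: that of Gla ran from 0.28 to 0.71, against 0.48 to 0.82 with genotype alone. Since the macrophage level also differed between the genotypes, the parts of a change that go with each cannot be fully told apart.

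For the 14 genes that passed with genotype alone, the change at equal macrophage level ran from 0.14 (Ctsb) to 0.50 (Gla), a median of 58.5% of the first change and a range of 23.6% to 80.1%. Gla kept most in absolute size: 0.50 (limma, adjusted p = 0.0519). It narrowly missed the threshold in this fit and passed in 8 of 19 alternatives, with adjusted p from 0.0131 to 0.368 over all of them, the highest being without Cebpg-/- replicate 2. Gusb kept 0.31 (95% interval 0.06 to 0.56; limma, adjusted p = 0.267), Tpp1 0.29 (0.05 to 0.53; adjusted p = 0.295), Ppt1 0.28 (0.03 to 0.53; adjusted p = 0.327) and Fuca1 0.25 (0.02 to 0.48; adjusted p = 0.348). The intervals of Ctsb (-0.15 to 0.42), Ctsd (-0.11 to 0.50), Psap (-0.08 to 0.58) and Neu1 (-0.06 to 0.71) included 0 and also changes as large as 0.42.

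**Figure D3:**
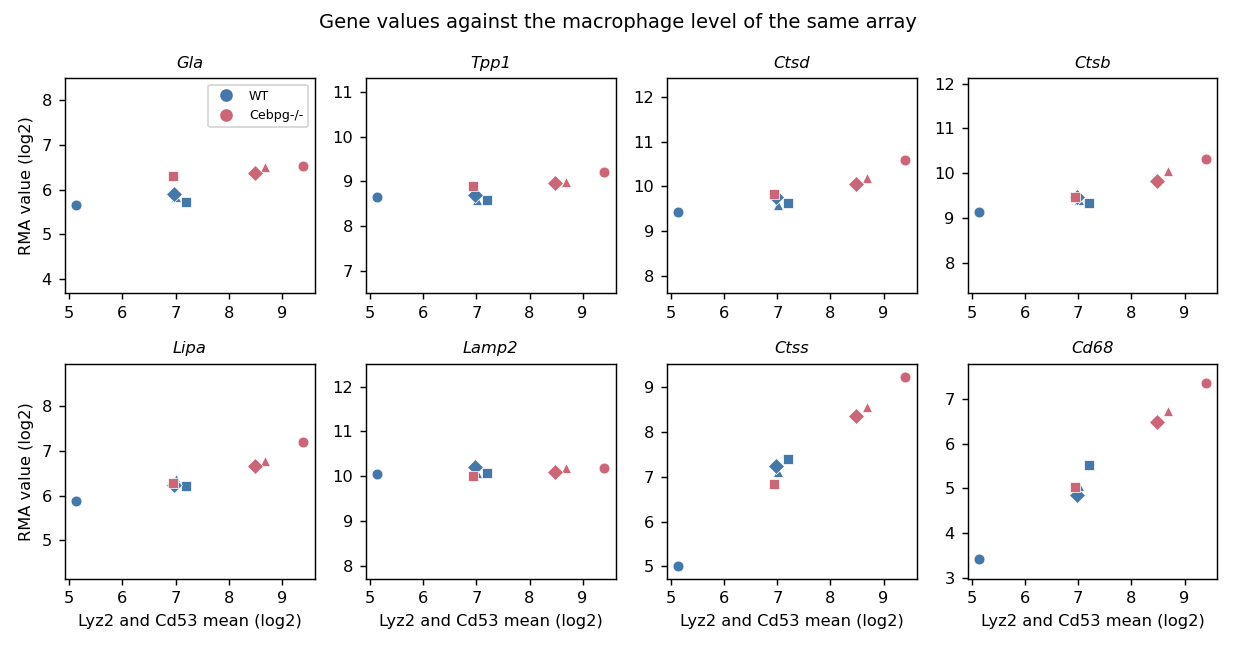
RMA values (log2) of 6 members and of the macrophage lysosomal genes Ctss and Cd68 against the mean of Lyz2 and Cd53 on the same array, 1 point per array, all panels spanning 4.8 log2 units in height; marker shape gives the replicate number as in the plot of values by array. Ctss and Cd68 climb with the macrophage level about as steeply as it does, Lipa and Ctsb less, and Lamp2 hardly; Gla is higher on Cebpg-/- replicate 2 (6.31) than on the WT arrays of like macrophage level (5.72 to 5.91).

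The slope of a gene on the macrophage level, within genotype, says how much it differs between arrays that differ by 1 log2 unit in Lyz2 and Cd53. It was positive and passed for 1 of 36 members, Lipa, and negative for none (limma, Benjamini-Hochberg over 18191 genes), where 0.456% of all genes had a positive and 0.022% a negative slope. At an unadjusted p under 0.05, 13 members (36.1%) had a positive and 0 a negative slope, against 4.47% and 2.48% of all genes, and 33 of 36 slopes (91.7%) were above 0, against 50.2%. Lipa had a slope of 0.28 (limma, adjusted p = 0.0484), and its change at equal macrophage level was 0.05 (95% interval -0.23 to 0.32). The call held in 1 of the 8 fits without 1 array, that without WT replicate 2, with adjusted p up to 0.807 without Cebpg-/- replicate 2. It was lost with Lyz2 alone as the macrophage level (adjusted p = 0.232) and kept with Cd53 alone (0.00713) or with a wider list of 22 macrophage genes (0.0179).

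Next in order were Ctsb (slope 0.24; limma, adjusted p = 0.120), Man2b1 (0.22; adjusted p = 0.0986) and Ctsd (0.20; adjusted p = 0.292), and the lowest was Ctsk (-0.14). Over the members slopes ran from -0.14 to 0.28 with a median of 0.08. Macrophage markers had slopes from 0.12 to 1.32 with a median of 1.06, and 20 of the 23 tested passed. Lysosomal genes known from leukocytes were among the latter: Ctss (cathepsin S) had a slope of 1.06, Laptm5 1.28 and Cd68 0.93. Slc11a1, a metal transporter of phagosomes that is not on the marker list, had a slope of 0.66. Every member slope was smaller than those of these 4 genes, and a difference of slopes between genes was not tested.

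**Figure D4:**
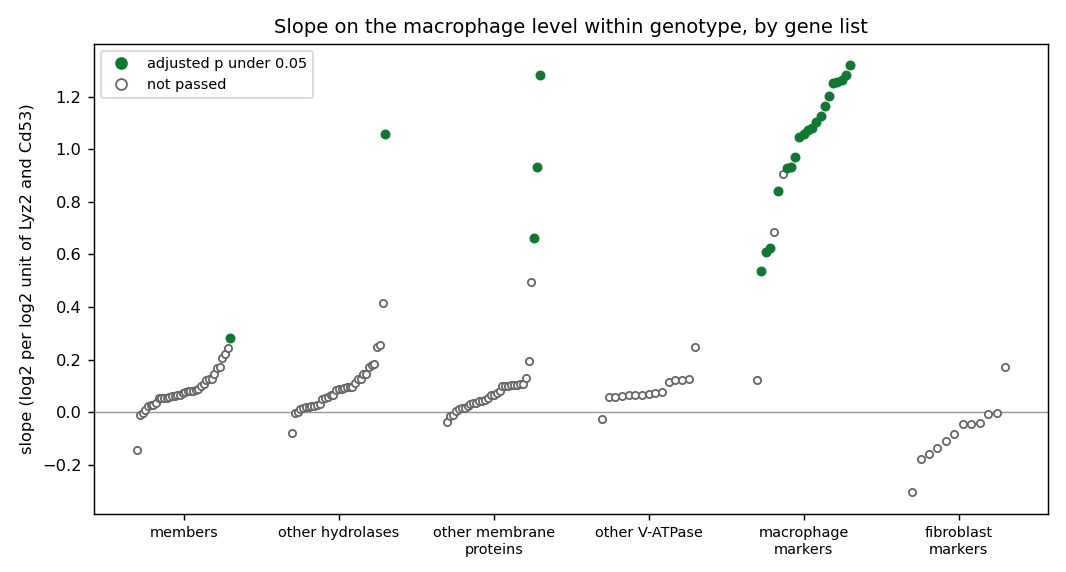
Slope within genotype on the mean of Lyz2 and Cd53 (log2 per log2 unit) for the members, for 3 lists of other lysosomal genes and for macrophage and fibroblast markers, 1 point per gene in order of slope; filled points passed. Member slopes lie between -0.14 and 0.28 and macrophage marker slopes between 0.12 and 1.32, so the 2 lists overlap only at the low end of the markers.

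Other genes of the organelle gave calls in the same direction for the most part, and the counts of the 7 lists that follow stand against 8.62% of all genes higher and 3.99% lower. Of 35 other hydrolases and activators 11 rose and 1, the carboxypeptidase Scpep1 (-0.41), fell, with a median of 0.24. Galc, which degrades the myelin lipid galactosylceramide, rose from 4.72 ± 0.07 to 5.50 ± 0.16 (SD, n = 4 each; 1.72-fold; limma, adjusted p = 0.000579), with groups apart (4.68 to 4.82 and 5.29 to 5.65). It also passed at equal macrophage level (0.62; limma, adjusted p = 0.0247). The lipase Abhd6 rose by 0.45 and cathepsin F (Ctsf) by 0.65 (limma, adjusted p = 0.00276 and 0.00434).

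Of 33 other membrane proteins and transporters 8 rose and 2 fell, with a median of 0.21; the 2 that fell were the ion transporters Clcn6 (-0.45) and Tpcn1 (-0.41). Cln3, the membrane protein lost in juvenile Batten disease, rose from 2.57 ± 0.18 to 3.70 ± 0.28 (SD, n = 4 each; limma, adjusted p = 0.00127) and by 0.78 at equal macrophage level (adjusted p = 0.0353); its WT values, 2.32 to 2.74, lie about the array median, where RMA compresses changes. Lmbrd1, of cobalamin export, rose by 0.52 (adjusted p = 0.00351) and Tmem106b by 0.36 (adjusted p = 0.00339).

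Of 15 V-ATPase subunits outside the members 6 rose and the other 9 missed the threshold (median 0.27), where none of the 3 member subunits passed; that difference was not tested. Atp6v0e2 rose by 1.35 (limma, adjusted p = 0.00333), from 3.60 to 3.89 in WT to 4.45 to 5.57 in Cebpg-/-. Of the cytosolic sector, Atp6v1b2 and Atp6v1c1, rose by 0.49 and 0.41 (adjusted p = 0.0147 and 0.00536).

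Of 24 genes that sort enzymes to the lysosome 4 rose and 20 did not pass (8.62% of all genes rose; median 0.09), among them Vps26a of the retromer (0.48; limma, adjusted p = 0.00262), Gnptg of the mannose 6-phosphate tag (0.42; adjusted p = 0.0163) and Sumf1, the activator of the sulfatases (0.31; adjusted p = 0.0204). Of 22 genes of lysosomal signalling 4 rose and 18 did not pass (median 0.10). Mitf, a relative of Tfeb, rose from 4.18 ± 0.18 to 4.99 ± 0.29 (SD, n = 4 each; 1.75-fold; limma, adjusted p = 0.00642), and Fnip2 and Flcn, partners that act on the Rag GTPases, rose by 0.60 and 0.41 (adjusted p = 0.00940 and 0.0119). The Mitf change at equal macrophage level was 0.50 (limma, adjusted p = 0.210).

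Of 27 autophagy genes 6 rose and 1, the kinase Ulk2 (-0.29), fell (8.62% and 3.99% of all genes; median 0.08); Wipi2, Vps33a and Vps11 rose by 0.40, 0.46 and 0.34 (limma, adjusted p = 0.00486, 0.0100 and 0.0148). Among 6 inhibitors of cathepsins, Cst6 and Cstb rose by 0.59 and 0.26 (adjusted p = 0.0250 and 0.0258), and the median was 0.15. At equal macrophage level Galc and Cln3 were the only genes of these 7 lists that passed (limma).

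Several probe sets name 23 of the members. With p-values adjusted over all probe sets instead of genes, the brightest probe sets of 11 of the 14 genes that passed still passed. Their 31 further probe sets include 16 above the median level, of which 15 had the direction of the brightest and 6 passed. No further probe set of these genes passed in the opposite direction (limma). Of the 11 genes that have such a further probe set above the median level, 5 had 1 or more that passed.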

How the data were processed

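Each array has 1 log2 value per probe set, deposited by the authors after RMA (named in the submitters' processing notes, with no settings). RMA usually equalises array distributions and compresses changes of dim probe sets. Of 45101 probe sets, 64 controls were left out, 34945 name 1 gene, 932 several and 9160 none; the last 2 kinds gave no gene result. Symbols were updated by Entrez number where possible (34741 probe sets; 204 kept the platform's symbol). Array medians were 2.70 to 2.76, and all 36 measured members lay above 2.73, the median of all values, on at least 4 arrays. The number of arrays limits the precision.

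All probe sets were fitted together with limma 3.58.1 (R 4.3.3; functions lmFit and eBayes, no trend), with genotype alone, or with genotype and the mean of Lyz2 and Cd53, and p-values were adjusted over all genes by Benjamini-Hochberg (threshold 0.05). The fits were tested on simulated data. Changes of 0.5 were recovered in 68% of genes with genotype alone and in 24% at equal macrophage level. For changes of 1 it was 96% and 84%, and for slopes of 0.25 and 0.5 it was 52% and 95%. False calls made up 4.42% to 5.77% of calls in those data. The false share of calls on the study's own arrays was not tested. How often a macrophage difference passes as a change in the fit with genotype alone was not tested either. A gene that did not pass at equal macrophage level may thus still differ.

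Members and lists were chosen with earlier results of these data known. Values on each array are given for members that passed with genotype or in slope and for Lamp1, Lamp2 and Tfeb, and pathway lists are named by up to 3 called genes of lowest p. Other pathway genes, markers that fell and pathway genes with a passing slope were named after their values were seen. As alternatives, array medians were subtracted, arrays were quantile-normalized, dim probe sets were left out, probe sets of a gene were averaged, and an intensity trend, array weights, a replicate block, other macrophage levels and fewer arrays were used. For the fits with the macrophage level, the trend, the weights and the joint omission of both replicates 1 were added after seeing the data. Promoter windows are from RefSeq (GRCm38.p6); 4 members had none. The labels name no scan date or batch.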

Additional observations from a re-analysis of the deposited data

Results flagged for a closer look

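In 7 of 118 groups of 4 arrays examined, the highest or lowest array was farther from the others than Dixon's 95% limit allows, with the gap given as a share of the group's range, and chance alone would set apart about 1 group in 20. WT replicate 1 had the lowest macrophage level, 5.13 against 6.98 for the nearest array (gap 0.894 of the range), and the lowest Cd53, 3.42 against 4.75 (0.829). The same array was lowest among WT for Manba, 4.71 against 4.81 (0.913). Ids was lowest among Cebpg-/- on replicate 2, 7.45 against 7.69 (0.836), the array of that group with the lowest macrophage level. Atp6v0d1 was highest on Cebpg-/- replicate 1, 9.17 against 8.97 (0.871). Lamp2 was highest among WT on replicate 4, 10.20 against 10.07 (0.855), and Atp6v1c1 on WT replicate 2, 8.96 against 8.87 (0.858).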

How the results depend on the processing

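The 14 members higher in Cebpg-/- became 6 with probe sets of a gene averaged, 8 with a replicate block and 1 without WT replicate 1 and Cebpg-/- replicate 1 together, and 6 to 19 without 1 array; the other alternatives gave 12 to 17. Deviations of same-numbered arrays from their group means correlated at -0.36, 0.15, 0.02 and 0.05. With 4 arrays a group and no word in the labels, these values cannot settle whether the numbers pair the samples. No member was lower under any of these alternatives. The median change of the members stayed between 0.16 and 0.29. At equal macrophage level the count of higher members, 0, became 1 (Gla) with quantile normalization, subtraction of array medians, the filter on dim probe sets, the intensity trend, array weights, Cd53 alone and the wider macrophage list, and was 0 to 1 without 1 array. The count of positive slopes, 1, became 0 with quantile normalization, subtraction of array medians, the filter, the mean of probe sets, the replicate block, Lyz2 alone and both replicates 1 left out, 3 (Ctsb, Lipa and Man2b1) with Cd53 alone, the wider list, the intensity trend and array weights, and 0 to 2 without 1 array. The macrophage level differed by 1.32 to 2.28 without 1 array, with exact p = 0.0286 without Cebpg-/- replicate 2 (2.28). The change of Lamp2, 0.02, turned to -0.0208 without both replicates 1, and ran from -0.00434 (without Cebpg-/- replicate 1 or 3) to 0.0558 (without Cebpg-/- replicate 2) without 1 array. The causes were not tested. The 4 arrays a group limit the precision, and signal over background per probe set was not analysed here.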
